A study of Homo sapiens with 12 samples.

Results

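The genes described here are the subunit genes of the respiratory chain and of ATP synthase, which are split between 2 genomes. Members were taken by symbol. The nuclear members carry symbols beginning with NDUFA, NDUFB, NDUFC, NDUFS or NDUFV and a digit, with UQCR, with a COX number from 4 to 8, or with ATP5F, ATP5M or ATP5P, together with SDHA, SDHB, SDHC and SDHD. The mitochondrially encoded members are the MT-ND, MT-CO, MT-ATP and MT-CYB genes. Of 23500 rows in the table, 117 matched. Leaving out hyphenated readthrough names and keeping the row with the highest summed count for each symbol gave 99 genes, of which 86 were nuclear and 13 mitochondrially encoded. A summed count of at least 10 over all libraries was reached by 94 of them, 81 nuclear and all 13 mitochondrially encoded, and these were among the 17162 genes tested.

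RNA was sequenced from HEK293T cells, a human embryonic kidney line, and from R1 cells, a single clone selected from HEK293T for growth without methionine. Both were cultured for 12 h in complete medium (+Met) or in medium in which homocysteine, the precursor of methionine, replaced it (−Met+Hcy), with 3 libraries in each of the 4 groups and 12664158 to 18771349 estimated counts per library. The R1 libraries are named R1 by title, although the cell line field of their labels reads HEK293T. Nothing in the labels says that the replicates came from separate cultures, so p-values measure the spread between these libraries, which may be technical.

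The respiratory chain passes electrons from NADH (complex I) and succinate (complex II) through coenzyme Q, complex III and cytochrome c to oxygen at complex IV, and complex V uses the proton gradient so built to make ATP. Complexes I, III, IV and V each combine subunits made in the cytosol from nuclear mRNAs with a few hydrophobic subunits made inside the mitochondrion, while complex II is nuclear alone. Mitochondrial DNA is transcribed as long RNAs that are cut into mRNAs, and all but one of its protein genes lie on the same strand, the exception being MT-ND6. Homocysteine is remethylated to methionine, and S-adenosylmethionine (SAM), made from methionine, is the methyl donor for coenzyme Q synthesis and for several steps in the making of mitochondrial RNA.

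Mitochondrial mRNAs whose balance changed between the media are shown by their first 30 coding bases, with the start codon in capitals, from GRCh38. These sequences identify the genes and were not used in any test. The first pair took a larger share of mitochondrial counts in −Met+Hcy and the other 3 a smaller one.
MT-ND2, chrM:4470-5511, plus strand: ATTaatcccctggcccaacccgtcatctac
MT-ND3, chrM:10059-10404, plus strand: ATAaacttcgccttaattttaataatcaac
MT-CO2, chrM:7586-8269, plus strand: ATGgcacatgcagcgcaagtaggtctacaa
MT-ND5, chrM:12337-14148, plus strand: ATAaccatgcacactactataaccacccta
MT-ND6, chrM:14149-14673, minus strand: ATGatgtatgctttgtttctgttgagtgtg
Among the 13 genes, MT-ND2 is the only one with ATT as its annotated first codon, and MT-ND1, MT-ND3 and MT-ND5 begin with ATA. In the mitochondrial code ATA is read as methionine like ATG. Together these codons made up from 3.95% of the codons of MT-CYB to 10.1% of those of MT-ND4L, with 6.92% in MT-ND2, 6.96% in MT-ND3, 4.30% in MT-ND5 and 5.71% in MT-ND6. MT-ND5 and MT-ND6 end against each other on opposite strands. Whether the counting used strand is not given in the sources used here, so reads of MT-ND6 and reads of heavy-strand RNA crossing it cannot be told apart.

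Among nuclear members, promoters were available from RefSeq (GRCh38.p14) for 68 of 86. They were searched on both strands, from 250 bases before to 50 after the start, for letters bound by factors known to drive respiratory genes. The NRF1 letters, GCGC and TGCGC with any 1 base between them, were in 17 of the 68 (25.0%), against 6.28% of 27305 promoters and 10.3% of the 12367 promoters of genes tested. The ETS letters CCGGAAGT, read by NRF2/GABP, were in 10 (14.7%, against 4.44% of all promoters and 7.67% of those of genes tested). The YY1 letters AAGATGGC were in 11 (16.2%, against 3.03% and 4.70%). A match is a run of letters and not a measured site. The 170 bases before the start are shown for NDUFB4, which fell in −Met+Hcy, and for UQCRFS1 and UQCRH, which were lower in R1 cells, with matches that lie wholly within them in capitals.
NDUFB4, chr3:120596166-120596335, plus strand: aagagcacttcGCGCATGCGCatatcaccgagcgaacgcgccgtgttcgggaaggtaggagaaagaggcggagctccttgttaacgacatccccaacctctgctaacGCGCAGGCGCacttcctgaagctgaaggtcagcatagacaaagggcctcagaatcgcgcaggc
UQCRFS1, chr19:29213152-29213321, minus strand: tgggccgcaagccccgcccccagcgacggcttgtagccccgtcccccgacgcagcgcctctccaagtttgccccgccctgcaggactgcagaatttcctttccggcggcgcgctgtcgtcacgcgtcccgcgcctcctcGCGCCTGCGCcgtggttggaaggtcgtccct
UQCRH, chr1:46303528-46303697, plus strand: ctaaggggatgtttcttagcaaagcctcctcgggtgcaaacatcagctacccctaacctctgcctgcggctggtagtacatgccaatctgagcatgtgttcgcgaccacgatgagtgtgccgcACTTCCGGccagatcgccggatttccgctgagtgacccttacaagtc
The bases of NDUFB4 hold the NRF1 letters at both capital runs, at the second run on the opposite strand. A further match, also on the opposite strand, begins in the lower-case bases at their end and crosses the start. The bases of UQCRFS1 hold the NRF1 letters once, and those of UQCRH hold the ETS letters on the opposite strand. No match was found for NDUFB10 and NDUFV3, which also fell, although promoters were not available for all members. Of the other genes lower in R1, ATP5MJ, COX5B, NDUFA7 and NDUFA11 had a match. ATP5MC1, COX5A, COX7A2, COX7B and NDUFB7 had none found. Whether matches go with changes in level was not tested.

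One library stood apart before any comparison. In R1 −Met+Hcy replicate 3, gene levels relative to the mean of the other libraries of its group fell with GC content (Spearman's rho -0.74 across genes). In the libraries of the other groups, each set against its own group, rho ran from -0.34 to 0.54. It was 0.6 and 0.73 in R1 −Met+Hcy replicates 1 and 2, whose reference includes replicate 3. The counts of replicate 3 differed from those of the other R1 −Met+Hcy libraries by a chi-square of 214 and 245 per gene, against 7.37 to 94.6 between replicates elsewhere. R1 +Met replicate 2 gave the next largest values, 75.6 and 94.6. Results are therefore given with and without R1 −Met+Hcy replicate 3, and no library or sequencing batch is given in the labels. Leaving that library out lowered the common dispersion of the model, its measure of the spread between libraries, from 0.109 to 0.035, which changes calls also in comparisons that the library does not enter. Log2 fold changes come from edgeR after TMM scaling, levels are CPM (a gene's estimated count relative to the total of its library), and the term called means a Benjamini-Hochberg adjusted p under 0.05 in edgeR's quasi-likelihood test over all genes tested. TMM moved all log2 fold changes by -0.29 in HEK293T cells, 0.04 in R1 cells and -0.35 between R1 and HEK293T cells relative to ratios of CPM, so that a model value near 0 corresponds to a gene that moved like the typical gene.

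The mitochondrially encoded genes took 3.42 to 4.95% of counts in HEK293T +Met libraries and the nuclear subunit genes 1.62 to 1.98%. In −Met+Hcy the mitochondrial share was 3.85, 2.38 and 2.54% in HEK293T replicates 1, 2 and 3, against 4.85, 4.95 and 3.42% in +Met, and the ranges overlapped. In R1 cells it was 4.21, 2.73 and 4.80% in +Met and 4.31, 5.24 and 8.72% in −Met+Hcy. The highest value of all 12 libraries was thus in the library that stood apart. The log2 ratio of group means was -0.59 in HEK293T cells and 0.64 in R1 cells (0.29 without R1 −Met+Hcy replicate 3), with SDs between libraries of 0.34 and 0.48 on the log2 scale. The nuclear share was 1.86, 1.62 and 1.98% in HEK293T +Met, 1.31, 1.56 and 1.80% in HEK293T −Met+Hcy, 1.33, 1.86 and 1.17% in R1 +Met, and 1.68, 1.28 and 1.53% in R1 −Met+Hcy. Its group ranges overlapped in every comparison. In bulk RNA a smaller share cannot be split into less of that RNA per cell and fewer cells that hold it.

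**Figure D1:**
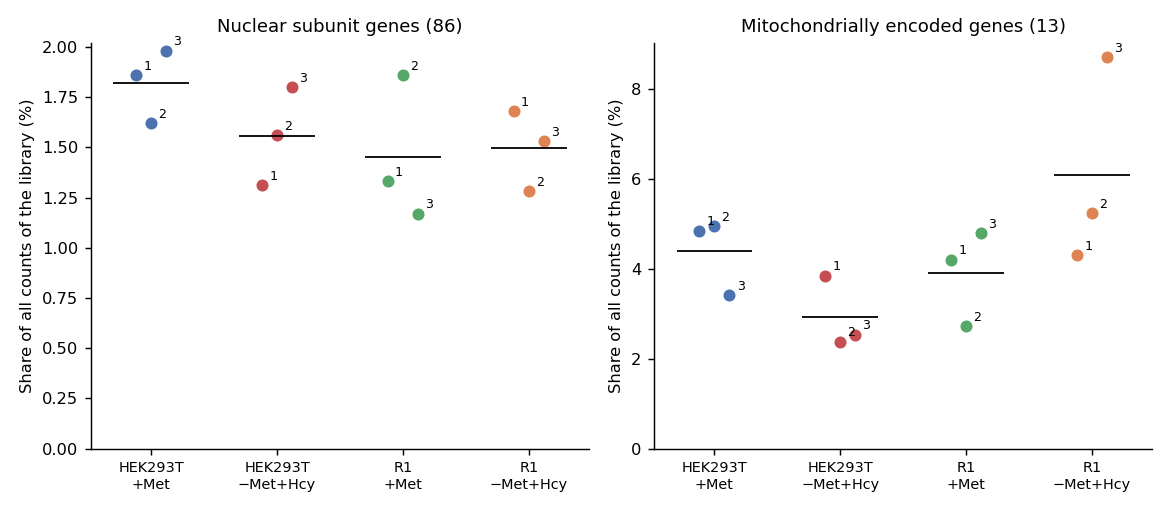
Share of all counts of each library (vertical axes, %, starting at 0) taken by the 86 nuclear and the 13 mitochondrially encoded genes, with 1 point a library, its replicate number beside it and a line at the group mean. The nuclear shares overlap between all groups, and the mitochondrial share is highest in R1 −Met+Hcy replicate 3 at 8.72%.

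Levels per kilobase used the length of 1 annotated transcript per gene. They compare genes only roughly, since the transcripts expressed may have other lengths and MT-ATP8, at 207 bases, is very short. The median level of the mitochondrially encoded genes in HEK293T +Met was 2968 CPM per kilobase, with MT-ATP6 highest at 7348 and MT-ATP8 lowest at 838. The median of 85 nuclear members with a length was 167 CPM per kilobase, and ATP5PO, a stalk subunit of ATP synthase, was highest at 1120. In HEK293T −Met+Hcy MT-CO1 took the first place among mitochondrial genes at 4806 CPM per kilobase and MT-ND6 the last at 562. MT-CO1 also led in R1 cells, at 6747 in +Met and 11755 in −Met+Hcy.

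In HEK293T cells part of the mitochondrial mRNAs was lower in −Met+Hcy than in +Met. Of the 13 mitochondrially encoded genes, 5 fell (edgeR, adjusted p under 0.05), none rose, and 12 had a negative log2 fold change. The median was -0.97, against 0.03 over all genes tested, of which 2.78% were called lower and 4.25% called higher. The 5 genes that fell came from 4 complexes: MT-ND5 and MT-ND6 (complex I), MT-CYB (complex III), MT-CO2 (complex IV) and MT-ATP6 (complex V). They were also the 5 whose CPM did not overlap between the media, a pattern seen for lower values in 9.80% of all genes tested.

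MT-ND6, a membrane subunit of complex I and the light-strand exception, was at 943, 936 and 651 CPM in +Met and at 421, 243 and 221 CPM in −Met+Hcy. All 3 libraries in −Met+Hcy were below all 3 in +Met, and the log2 fold change was -1.82 (SE 0.283, n = 3 per group, edgeR adjusted p = 0.00407). This call held in all 21 alternative analyses, over which the log2 fold change ran from -2.12 to -1.55. MT-ND5, whose gene ends where that of MT-ND6 ends on the other strand, had 2848, 3201 and 2099 CPM in +Met and 1512, 831 and 805 CPM in −Met+Hcy (log2 fold change -1.68, SE 0.387, edgeR adjusted p = 0.0238). The ratio of MT-ND6 to MT-ND5 counts stayed between 0.275 and 0.331 in 11 libraries and was 0.147 in R1 −Met+Hcy replicate 3.

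MT-CYB, the cytochrome b of complex III, had 3830, 3695 and 2636 CPM in +Met and 2039, 1232 and 1351 CPM in −Met+Hcy (log2 fold change -1.44, SE 0.318, edgeR adjusted p = 0.0201). MT-CO2, which carries the copper site that accepts electrons from cytochrome c, went from 3983, 4419 and 2967 CPM to 2272, 1445 and 1516 CPM (log2 fold change -1.42, SE 0.355, edgeR adjusted p = 0.0331). In both genes the media did not overlap. MT-ATP6, the proton channel subunit of ATP synthase, had 5642, 5615 and 3755 CPM in +Met and 3699, 2261 and 2406 CPM in −Met+Hcy (log2 fold change -1.14, SE 0.312, edgeR adjusted p = 0.0475). Its nearest libraries differed by little, 3755 against 3699 CPM, and the call was lost in 13 of 21 alternatives, against 8 for MT-CO2, 5 for MT-ND5 and 4 for MT-CYB. MT-ND6 alone was called when HEK293T +Met replicate 1 or 2 or HEK293T −Met+Hcy replicate 2 or 3 was left out, 2 genes were called without HEK293T +Met replicate 3, and 3 without HEK293T −Met+Hcy replicate 1 or R1 +Met replicate 1. With the trend of each library with GC content and transcript length removed, the median was -0.77 and MT-ATP6 was no longer called (adjusted p = 0.119, edgeR).

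MT-ND2 stood at the other end. This complex I subunit had 3893, 3995 and 2684 CPM in +Met and 5930, 3532 and 3798 CPM in −Met+Hcy, with overlapping libraries and a log2 fold change of 0.03 (SE 0.308, edgeR adjusted p = 0.977). MT-ND3, a further complex I subunit, had a log2 fold change of -0.26 (SE 0.397). The remaining genes lay between -0.67 and -1.01 with adjusted p from 0.0859 to 0.547 in edgeR: MT-ND1, MT-ND4 and MT-ND4L of complex I, MT-CO1 and MT-CO3 of complex IV, and MT-ATP8. Without R1 −Met+Hcy replicate 3, MT-CO1, MT-CO3, MT-ND4 and MT-ND4L were called as well, giving 9 lower calls among the 13, where 12.5% of all genes tested were called lower and 15.2% called higher.

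**Figure D2:**
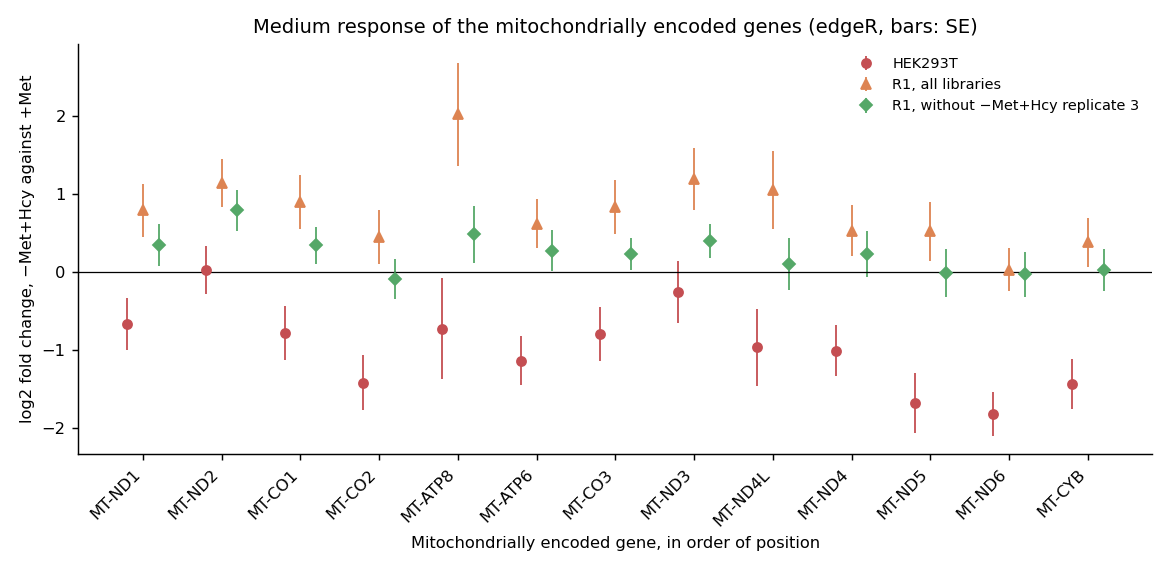
Log2 fold change in −Met+Hcy against +Met (vertical axis, edgeR, bars 1 SE) of the 13 mitochondrially encoded genes in order of position, for HEK293T cells, R1 cells with all libraries, and R1 cells without −Met+Hcy replicate 3. HEK293T values run from -1.82 (MT-ND6) to 0.03 (MT-ND2), and every R1 value lies above the HEK293T value of the same gene.

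Within the mitochondrial counts the scaling between libraries drops out, and the make-up of these mRNAs can be compared without it. The trends of each library with GC content and transcript length stay in these shares, which were not corrected for them. MT-ND2 made up 8.03, 8.06 and 7.84% of mitochondrial counts in HEK293T +Met and 15.4, 14.8 and 15.0% in −Met+Hcy. Replicates differed by less than 1 percentage point and the media by 7.09 points. In R1 cells its share was 5.69, 5.65 and 5.82% in +Met and 8.31, 8.34 and 6.93% in −Met+Hcy, higher in all 3 libraries with the lowest value in the library that stood apart. The ratio of MT-ND2 to MT-ND5 counts lay between 1.25 and 1.37 in HEK293T +Met and between 3.92 and 4.72 in −Met+Hcy. In R1 cells it lay between 0.893 and 1.03 in +Met and was 1.72, 1.62 and 1.31 in −Met+Hcy.

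The opposite shift was seen for MT-CO2, MT-ND5, MT-ND6 and MT-CYB in both cell lines. The share of MT-CO2 was 8.60% ± 0.354 (SD, n = 3) in HEK293T +Met and 5.98% ± 0.0761 in −Met+Hcy, and 9.41% ± 0.109 and 7.62% ± 0.376 in R1 cells. MT-CYB went from 7.69% ± 0.224 to 5.27% ± 0.0856 in HEK293T and from 7.97% ± 0.142 to 6.45% ± 0.674 in R1 cells. For these genes no −Met+Hcy library reached the lowest +Met library of its own cell line. MT-ND5 went from 6.16% ± 0.292 to 3.53% ± 0.381 in HEK293T and from 5.92% ± 0.536 to 5.10% ± 0.238 in R1 cells. MT-ND6 went from 1.91% ± 0.0303 to 0.996% ± 0.113 in HEK293T cells, and in R1 cells from 1.78, 1.76 and 1.93% to 1.51, 1.52 and 0.779%. The lowest of these was the library that stood apart, but the others were also below every R1 +Met library.

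In HEK293T cells 4 genes had non-overlapping higher shares in −Met+Hcy (MT-ND1, MT-ND2, MT-CO1 and MT-ND3), 5 had lower ones (MT-CO2, MT-ATP6, MT-ND5, MT-ND6 and MT-CYB) and 4 overlapped. In R1 cells 2 were higher (MT-ND2 and MT-ND3), 4 were lower (MT-CO2, MT-ND5, MT-ND6 and MT-CYB) and 7 overlapped. Shares of one library add up to a whole, so a larger share of one gene goes with smaller shares of others by construction. In HEK293T cells the log2 fold change of MT-ND2 was 0.03 and those of all other mitochondrial genes were negative. An exact permutation test of 3 libraries against 3 cannot give a two-sided p under 0.10, which each of the 15 non-overlapping comparisons reached, before any adjustment over the 26 comparisons. The size of the shift of MT-ND2, as a log2 ratio of mean shares, was 0.92 in HEK293T and 0.46 in R1 cells, and the difference between the lines was not tested on shares.

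**Figure D3:**
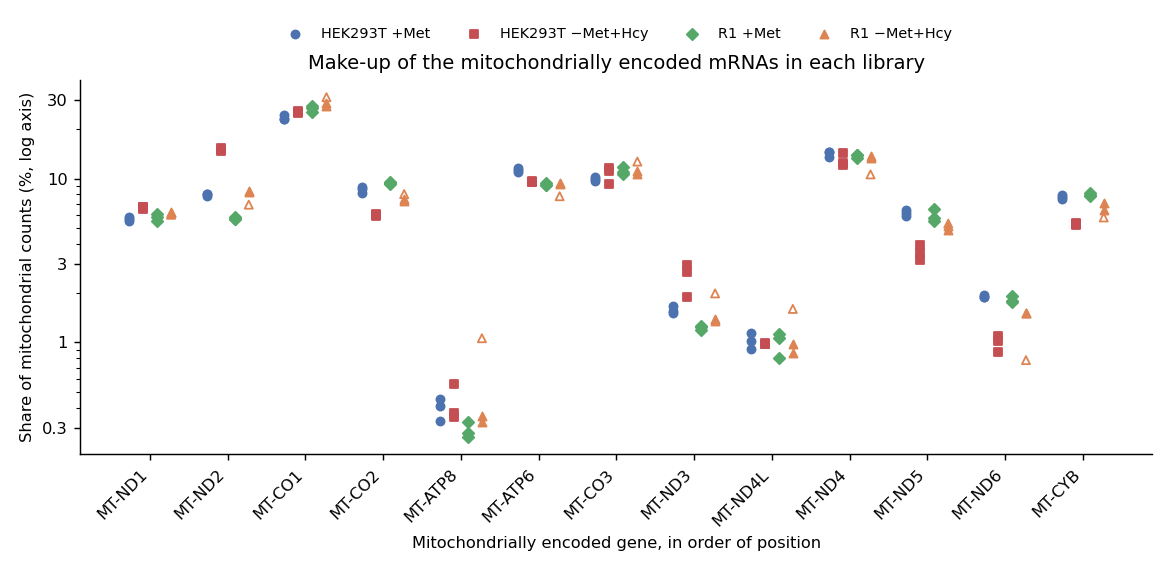
Share of mitochondrial counts (vertical axis, %, log scale) of each of the 13 genes in order of position, 1 point a library, with R1 −Met+Hcy replicate 3 as an open triangle. MT-ND2 goes from about 8% to 15% in HEK293T cells, while MT-CO2, MT-ND5, MT-ND6 and MT-CYB are lower in −Met+Hcy in both cell lines.

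The lines also differed before the medium change. In +Met the share of MT-ND2 was 7.98% ± 0.121 (SD, n = 3) in HEK293T and 5.72% ± 0.0923 in R1 cells, and the shares of MT-ATP6 (11.3% against 9.20%), MT-ND3 (1.58% against 1.23%) and MT-ATP8 (0.395% against 0.290%) were likewise lower in R1 without overlap. Those of MT-CO1, MT-CO2 and MT-CO3, the core of complex IV, were higher in R1 without overlap, at 26.8% against 23.6% for MT-CO1. Reads of MT-ATP8 and MT-ATP6 share bases, as do those of MT-ND4L and MT-ND4, so counts within these pairs could be split either way.

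The nuclear subunit genes of HEK293T cells had smaller negative values in −Met+Hcy. Of 81 tested, 3 fell, none rose and 74 had a negative log2 fold change, with a median of -0.44. The 3 that fell all encode accessory subunits of complex I. The 3 called lower among 81 were close to the 2.78% of all genes tested that were called lower, while at an unadjusted p under 0.05 edgeR gave 22 lower and 1 higher among the 81, against 9.49% lower and 12.9% higher of all genes tested. By complex the median log2 fold change was -0.46 over 36 genes of complex I, -0.54 over 4 of complex II, -0.29 over 9 of complex III, -0.35 over 15 of complex IV and -0.60 over 17 of complex V, with negative values for 35, 4, 7, 11 and 17 genes. Without overlap between the media, 16 nuclear genes were lower and 5 higher in CPM, against 9.80% lower and 38.6% higher of all genes tested.

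NDUFB4, of the membrane arm of complex I, had 156, 149.9 and 161 CPM in +Met and 83.9, 94.5 and 103 CPM in −Met+Hcy, with a log2 fold change of -1.02 (SE 0.262, edgeR adjusted p = 0.0376). NDUFB10, of the same arm, had 286, 235 and 285 CPM against 174, 185 and 206 CPM (log2 fold change -0.81, SE 0.203, edgeR adjusted p = 0.0340). NDUFV3, of the NADH-binding module, had 39.9, 34.7 and 36.7 CPM against 31.4, 24.7 and 27.4 CPM (log2 fold change -0.71, SE 0.186, edgeR adjusted p = 0.0392). The media did not overlap for any of the 3. No nuclear gene was called when any 1 of the 6 HEK293T libraries or R1 +Met replicate 1 was left out, 1 was called without R1 +Met replicate 3, and 5 without R1 +Met replicate 2. The share of all genes tested called in those fits is not given here. With the trends of each library with GC content and transcript length removed, NDUFB4 (adjusted p = 0.000576) and NDUFV3 (adjusted p = 0.0108) kept their calls in edgeR and NDUFB10 did not (log2 fold change -0.50, adjusted p = 0.251), and the median of the nuclear genes was -0.28. In that fit 17 nuclear genes were called, all lower, where 8.94% of all genes tested were called lower and 9.47% higher.

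Without R1 −Met+Hcy replicate 3, 19 of the 81 nuclear genes fell and none rose, where 12.5% of all genes tested were called lower and 15.2% higher. They were 11 genes of complex I, SDHB and SDHC of complex II, UQCRB and UQCRC1 of complex III, and ATP5F1C, ATP5F1D, ATP5MC3 and ATP5MK of complex V, with none from complex IV. UQCRB, a ubiquinone-binding subunit of complex III, had 219.7, 212 and 234 CPM in +Met and 128, 129 and 140.5 CPM in −Met+Hcy. Its log2 fold change of -1.04 had an adjusted p of 0.181 with all libraries and 0.000586 without that library (edgeR). SDHB, the iron-sulfur subunit of complex II, had 152, 139 and 154 CPM against 83.2, 100.5 and 121 CPM, with a log2 fold change of -0.84 and adjusted p values of 0.118 and 0.00872 in the same order (edgeR).

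Other subunits, named whatever they did, gave smaller values in HEK293T cells. NDUFS1, the large iron-sulfur subunit of complex I, had a log2 fold change of -0.43 (edgeR adjusted p = 0.137, and 0.0286 without R1 −Met+Hcy replicate 3), and NDUFV1, which binds NADH, had -0.16. SDHA, the flavoprotein of complex II, had -0.05. UQCRC1 of complex III had -0.60 (edgeR adjusted p = 0.277, and 0.00502 without that library). UQCRFS1, the Rieske iron-sulfur protein, was higher in all −Met+Hcy libraries in CPM, at 241, 291 and 299 against 168, 175 and 173, but the model gave 0.40 with an adjusted p of 0.353 (edgeR). COX4I1 and COX5A of complex IV had -0.39 and -0.36, and ATP5F1A and ATP5F1B, the alpha and beta subunits that hold the catalytic sites of ATP synthase, had -0.50 and -0.21, none of them called.

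In R1 cells no member was called in the response to −Met+Hcy. All 13 mitochondrially encoded genes had a positive log2 fold change, with a median of 0.79, and 45 of 81 nuclear genes did, with a median of 0.03. Only 0.00583% of all genes tested were called in either direction, and DESeq2 called no member and 0.233% of all genes tested. At an unadjusted p under 0.05 edgeR gave 6 mitochondrial genes and 1 nuclear gene, all higher, against 5.68% higher of all genes tested. With GC and length trends removed the medians were 0.32 for mitochondrial and -0.01 for nuclear genes. Without replicate 3 the mitochondrial median was 0.23 with 10 genes up and 3 down, 0 members were called against 0.0176% of all genes tested, and 1 mitochondrial gene and no nuclear gene had an unadjusted p under 0.05, against 7.06% of all genes tested.

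MT-ND2 had 2399, 1542 and 2794 CPM in R1 +Met and 3582, 4372 and 6044 CPM in −Met+Hcy. The media did not overlap, and the log2 fold change was 1.14 (SE 0.312, edgeR adjusted p = 0.622) and 0.79 (SE 0.264, edgeR adjusted p = 0.559) without replicate 3. MT-ND6 had 748, 481 and 926 CPM against 648, 795 and 679 CPM, a log2 fold change of 0.03 (SE 0.274). MT-ATP8 gave the largest value, 2.02, but this rested on replicate 3, which had 923 CPM beside 140.2 and 187 CPM, and it was 0.48 without it.

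The difference between the lines in their response, R1 minus HEK293T, was positive for all 13 mitochondrial genes (median 1.77, from 1.11 to 2.76) and for 66 of 81 nuclear genes (median 0.46), against a median of -0.06 over all genes tested. None was called in edgeR, where 0.0583% of all genes tested were called. At an unadjusted p under 0.05 all 13 mitochondrial genes and 17 nuclear genes were higher and 2 nuclear genes were lower, against 4.62% higher and 5.05% lower of all genes tested. The 13 mitochondrial mRNAs are cut from shared long RNAs and are not independent results. DESeq2 called 5 mitochondrial genes, no nuclear gene and 1.30% of all genes tested. With GC and length trends removed in edgeR the medians were 1.17 for mitochondrial and 0.27 for nuclear genes. Without R1 −Met+Hcy replicate 3, 1.68% of all genes tested were called and the members' medians were 1.21 and 0.39. MT-ND6 was then called at a difference of 1.79 (SE 0.385, edgeR adjusted p = 0.0409) and UQCRB at 1.06 (SE 0.232, edgeR adjusted p = 0.0425). With all libraries these genes had 1.85 (SE 0.391, adjusted p = 0.157) and 2.04 (SE 0.615, adjusted p = 0.334) in edgeR. For UQCRB the CPM in R1 −Met+Hcy was 192, 165 and 585, the last of these in the library that stood apart, and 151, 202 and 157 in R1 +Met.

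In +Met the levels of several nuclear subunit genes were lower in R1 than in HEK293T cells. Of 81 nuclear genes tested, 11 were lower in R1, 1 was higher and 75 had a negative log2 fold change, with a median of -0.67, against 0.02 over all genes tested, of which 4.48% were called lower and 5.69% higher. The lower genes were NDUFA7, NDUFA11 and NDUFB7 (complex I), UQCRFS1 and UQCRH (complex III), COX5A, COX5B, COX7A2 and COX7B (complex IV), and ATP5MC1 and ATP5MJ (complex V). Without overlap 18 nuclear genes were lower in R1, where 9.15% of all genes tested were, and 9 were higher, where 38.1% of all genes tested were. HEK293T +Met libraries also enter the HEK293T medium comparison, so both sets of values rest on the same libraries.

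COX7B, a small subunit of complex IV, had 444, 397 and 505 CPM in HEK293T and 115, 237 and 86.1 CPM in R1 (log2 fold change -1.96, SE 0.518, edgeR adjusted p = 0.0327). NDUFA11, an accessory subunit of complex I, had 382, 257 and 448 CPM against 128, 219.5 and 92.5 CPM (log2 fold change -1.65, SE 0.428, edgeR adjusted p = 0.0300). In both genes R1 +Met replicate 2 was the highest of the R1 libraries. COX7A2 had 135, 89.0 and 134 CPM against 56.7, 89.3 and 38.5 CPM, and overlapped (log2 fold change -1.31, SE 0.336, edgeR adjusted p = 0.0294). ATP5MC1, one of the genes for the membrane ring of ATP synthase, had 344, 265 and 386 CPM against 159.5, 255 and 114 CPM (log2 fold change -1.26, SE 0.365, edgeR adjusted p = 0.0474). As in COX7A2, replicate 2 of each line lay nearest to the other line.

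NDUFB7 had a log2 fold change of -1.10 (SE 0.275, edgeR adjusted p = 0.0263), and UQCRH, the hinge protein of complex III, had -1.05 (SE 0.248, edgeR adjusted p = 0.0202), although a near-copy, UQCRHL, may share its reads. UQCRFS1 had 168, 175 and 173 CPM in HEK293T and 105, 132 and 102 CPM in R1 (log2 fold change -0.96, SE 0.239, edgeR adjusted p = 0.0260). COX5A, a nuclear subunit of complex IV, had -0.86 (SE 0.234, edgeR adjusted p = 0.0368). The single gene that was higher, NDUFS1, had 55.3, 66.7 and 60.7 CPM in HEK293T and 119, 141 and 125 CPM in R1 (log2 fold change 0.73, SE 0.162, edgeR adjusted p = 0.0150). It has 2 entries in the table between which reads could have been split.

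These calls depended on single libraries and on library trends. No nuclear gene was called without HEK293T +Met replicate 1 or replicate 3, 7 were without HEK293T +Met replicate 2, 8 without HEK293T −Met+Hcy replicate 2, 1 without R1 +Met replicate 1 or replicate 3, and 33 without R1 +Met replicate 2. The share of all genes tested called in those fits is not given here, so these counts show only how calls moved. Without R1 −Met+Hcy replicate 3, 41 nuclear genes were lower and 2 higher, NDUFS1 among them, where 15.7% of all genes tested were called lower and 17.0% higher. With GC and length trends removed the nuclear median was -0.26, and NDUFB7 (adjusted p = 0.211), UQCRH (adjusted p = 0.149), ATP5MJ (adjusted p = 0.376) and NDUFS1 (adjusted p = 0.152) were no longer called in edgeR, while COX7B (log2 fold change -1.80, adjusted p = 0.00574) and NDUFA11 (log2 fold change -1.10, adjusted p = 0.00307) were. The mitochondrially encoded genes all had negative values (median -0.57, from -0.35 to -1.01), and none was called in edgeR. Of these, 3 had an unadjusted p under 0.05, all lower (12.5% of all genes tested), and DESeq2 called 1 (16.8% of all genes tested). EdgeR called 4 without R1 −Met+Hcy replicate 3 (MT-ATP6, MT-ATP8, MT-ND2 and MT-ND3), and with trends removed the median was 0.01 and 7 of the 13 values were positive.

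**Figure D4:**
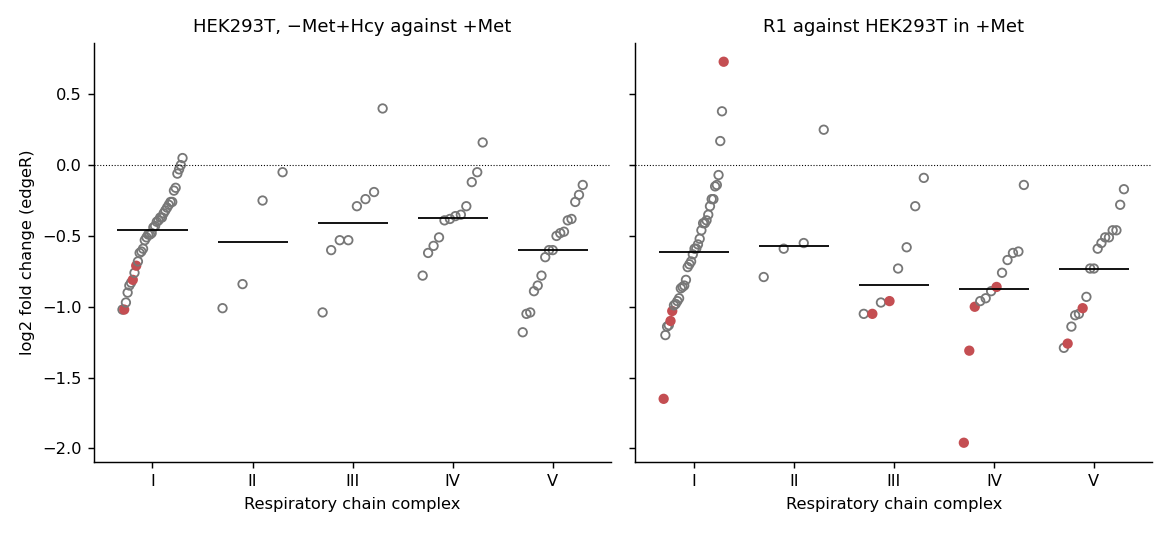
Log2 fold change (vertical axis, edgeR) of the nuclear members with a mean of at least 1 CPM, by respiratory chain complex, in HEK293T cells between the media and between the cell lines in +Met, with called genes as filled points and a line at the median of each complex. Most genes of every complex lie below 0 in both panels, and the lowest point is COX7B at -1.96.

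Paralogs that are restricted to certain tissues or linked to hypoxia were barely detected. COX4I2, COX6A2, COX7B2 and ATP5MGL had 0 counts in all 12 libraries, which allows up to 3 counts in each, and COX7A1 had 1 count in R1 −Met+Hcy replicate 2. NDUFA4L2, a hypoxia-induced paralog, had 4 to 8 counts per library in HEK293T +Met and 8 to 14 in −Met+Hcy. The testis-type paralogs COX6B2 and COX8C had 0 to 2 counts in HEK293T +Met and 3 to 10 in −Met+Hcy. None of these was called, and the nuclear members with more than 1 entry under the same symbol were NDUFA3 (10 entries), NDUFA6 (5), NDUFS1, NDUFS3 and COX8C (2 each).

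Genes around the respiratory chain were followed by lists that do not overlap the members. Calls are with all libraries unless stated, the reduced fit is the one without R1 −Met+Hcy replicate 3, and in R1 cells and for the difference between the lines no gene of these lists was called in either fit. With all libraries 2.78% of all genes tested were called lower and 4.25% higher in HEK293T −Met+Hcy. For R1 in +Met these shares were 4.48% lower and 5.69% higher. In the reduced fit 12.5% of all genes tested were called lower and 15.2% higher in HEK293T −Met+Hcy, and 15.7% lower and 17.0% higher in R1 in +Met. CYC1, CYCS, NDUFAB1, ATP5IF1 and DMAC2L, which belong to or act on the complexes under other symbols, all had negative values in HEK293T cells (median -0.70), and none was called in any comparison. In the reduced fit NDUFAB1 and CYC1 were called lower in HEK293T −Met+Hcy and NDUFAB1 and CYCS lower in R1 in +Met. NDUFAB1, the mitochondrial acyl carrier protein, was nearest with all libraries, with 163, 156 and 187 CPM against 79.7, 102 and 119 CPM (log2 fold change -1.04, edgeR adjusted p = 0.0514). Of 54 assembly factors, 1 rose in HEK293T cells, ATPAF2 of the ATP synthase (log2 fold change 0.67, edgeR adjusted p = 0.0480), and the median was -0.05. In +Met 5 assembly factors were lower in R1 cells. The largest value was that of NDUFAF4, which helps to assemble complex I, at 122, 100.1 and 124 CPM in HEK293T and 27.7, 39.5 and 24.2 CPM in R1 (log2 fold change -2.27, SE 0.353, edgeR adjusted p = 0.00230). TMEM126B (log2 fold change -1.52) and CMC1 (log2 fold change -1.26) of complex I and complex IV assembly followed, and the median over the list was -0.46. The reduced fit called 10 assembly factors higher and 6 lower in HEK293T −Met+Hcy, and 24 were lower and none higher in R1 in +Met.

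Of 28 tested genes for the replication, transcription and processing of mitochondrial DNA and RNA, 2 rose and 2 fell in HEK293T cells. Of all genes tested, 4.25% were called higher and 2.78% lower. SSBP1, which binds single-stranded mitochondrial DNA, had 305, 288 and 312 CPM in +Met and 148, 165 and 167 CPM in −Met+Hcy (log2 fold change -1.20, SE 0.316, edgeR adjusted p = 0.0402). POLG2, the accessory subunit of the mitochondrial DNA polymerase, had 41.7, 42.2 and 38.1 CPM against 25.7, 24.9 and 24.0 CPM and fell by 1.00 on the log2 scale (SE 0.211, edgeR adjusted p = 0.0155). No library of one medium reached the other in either gene. MGME1, a mitochondrial exonuclease, had 59.9, 66.2 and 53.7 CPM against 141, 136 and 129 CPM (log2 fold change 0.88, SE 0.164, edgeR adjusted p = 0.00902), and FASTKD5, which acts in the processing of mitochondrial mRNAs, had a log2 fold change of 0.76 (edgeR adjusted p = 0.0208). Between the lines in +Met, TFB2M, a mitochondrial transcription factor, and FASTKD3 were lower in R1 (log2 fold changes -1.45 and -1.41, edgeR adjusted p = 0.0165 and 0.0386). The reduced fit called 4 genes of the list higher and 6 lower in HEK293T −Met+Hcy, and 15 were lower and none higher in R1 in +Met.

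Of 10 nuclear regulators of respiratory genes none was called in any comparison. PPARGC1A, the coactivator PGC-1alpha, was at 0.313, 0.342 and 0.735 CPM in HEK293T +Met and 1.68, 1.82 and 1.12 CPM in −Met+Hcy (log2 fold change 1.41, SE 0.522, edgeR adjusted p = 0.131), and NRF1 had -0.10. By the reduced fit 2 regulators were higher in HEK293T −Met+Hcy, PPARGC1A and GABPA, and 2 lower, ESRRA and HIF1A. Between the lines in +Met, PPARGC1A and ESRRA were then higher in R1 and PPRC1, GABPB1 and GABPA lower. Of 13 genes of coenzyme Q synthesis, 1 was called, COQ3, a SAM-dependent methyltransferase, which was lower in R1 in +Met (62.8, 61.0 and 71.7 CPM against 29.2, 42.6 and 26.5 CPM, log2 fold change -1.34, SE 0.255, edgeR adjusted p = 0.00681). In the reduced fit PDSS2 was called higher and COQ3 and PDSS1 lower in HEK293T −Met+Hcy, and COQ10A was higher and COQ3, COQ8A, PDSS1 and COQ4 lower in R1 in +Met. COQ3 was also the single call with all libraries among 8 genes whose products use or carry SAM in mitochondria. The reduced fit called COQ3 and NDUFAF7 lower in HEK293T −Met+Hcy, and COQ3, TRMT10C and SLC25A26 lower in R1 in +Met. In HEK293T cells the log2 fold changes of these 8 were -0.79 for COQ3, 0.61 for COQ5, -0.61 for NDUFAF7, 0.19 for ATPSCKMT, 0.12 for TFB1M, 0.05 for TRMT10C, 0.16 for NSUN4 and -0.11 for SLC25A26, the SAM carrier. Of 13 citrate cycle genes, FH (log2 fold change -0.97, edgeR adjusted p = 0.00574) and IDH3G (log2 fold change -0.83, edgeR adjusted p = 0.00733) fell in HEK293T cells in −Met+Hcy, the list's median being -0.41. Of all genes tested 2.78% were called lower there. OGDH, a subunit of the 2-oxoglutarate dehydrogenase complex, was higher in R1 in +Met, at 119.9, 92.8 and 123 CPM against 38.7, 38.2 and 30.2 CPM (log2 fold change 1.29, SE 0.260, edgeR adjusted p = 0.00901). In the reduced fit IDH3B, CS and MDH2 were also called lower in HEK293T −Met+Hcy, and FH was lower in R1 in +Met.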

How the data were processed

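RNA was sequenced from HEK293T and R1 cells after 12 h in +Met or −Met+Hcy. The authors quantified reads with kallisto 0.48.0 against GRCh38, added the estimated counts of each Ensembl gene and deposited the sums as whole numbers, not scaled for depth. Library preparation, strand and annotation release are not given in the sources used here. Groups followed the sample titles.

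Genes with a summed count under 10 were left out. edgeR 4.0.16 (R 4.3.3) fitted 1 quasi-likelihood model with TMM scaling and 4 group means (8 residual degrees of freedom), with p adjusted by Benjamini-Hochberg over all genes. CPM used column sums. Coordinates and lengths came from GENCODE. Alternatives were DESeq2 1.42.0, RLE scaling, other filters, a replicate block, fewer libraries, a log2 fold threshold of 1 and removal of GC and length trends (loess, span 0.3; 92.4% of genes had both). Removing trends and a library together, and adding entries of one symbol, were chosen after seeing the data. On simulated data edgeR called 158 of 200 genes changed 2-fold and 11 unchanged genes of 16953 (DESeq2: 171 and 21). The simulation used the spread of the fit without R1 −Met+Hcy replicate 3 (common dispersion 0.035, against 0.109 in the main fit). It had no library trends and changed only genes above a set level, so these counts do not measure detection in the main fit.

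Members and lists were chosen with earlier results of these data known. Named genes were the 13 mitochondrial genes, up to 6 called members per direction and comparison, a fixed set of subunits from each complex, tissue-restricted paralogs, called genes of the lists and the SAM list. UQCRB, ATP5PO, NDUFAB1, PPARGC1A and NRF1 were named after their values were seen. Some items that meet these rules enter the counts and are not reported here.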

Additional observations from a re-analysis of the deposited data

Results flagged for a closer look

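The medium response of 2 members differed between the cell lines by the test of the difference itself (edgeR, R1 minus HEK293T) when R1 −Met+Hcy replicate 3 was left out. That fit called 287 of 17069 genes tested (1.68%), so 2 calls among 94 tested members are near the share over all genes. MT-ND6 differed by 1.79 on the log2 scale (SE 0.385, edgeR adjusted p = 0.0409). Over 20 alternatives to the fit with all libraries, this fit among them, its difference ran from 1.17 to 2.15. Adjusted p ran from 0.00152 (DESeq2) to 0.571 (edgeR), and the 2 calls were in this fit and in DESeq2. UQCRB differed by 1.06 (SE 0.232, edgeR adjusted p = 0.0425). Over the same alternatives its difference ran from 1.06 to 2.38, with adjusted p from 0.0395 to 0.729 (edgeR). Its 2 calls were in this fit and in the fit without the same library that also removed GC and length trends. With all libraries neither was called. Reads of MT-ND6 and of heavy-strand RNA crossing it cannot be told apart.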

How the results depend on the processing

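The counts of called genes depended on the library left out. The number called among all genes tested also changed with the fit, and it is given here for some of the fits. For the others, among them the fits with only the libraries of the comparison, it is not given. Counts of members from those fits show how calls moved and are not set against all genes tested. In HEK293T cells the count of nuclear genes called in −Met+Hcy against +Met was 3, and it was 9 with DESeq2, 0 with the replicate block, 41 with only the libraries of the comparison, 17 with GC and length trends removed, 41 with trends removed and without R1 −Met+Hcy replicate 3, and 1 with the fold threshold. It ran from 0 to 19 over single libraries left out. Among all 17162 genes tested DESeq2 called 2237, and with trends removed 8.94% were called lower and 9.47% higher. With trends removed and without R1 −Met+Hcy replicate 3 the 41 were 37 lower and 4 higher. In that fit 2996 of 17069 genes tested were called lower and 3206 higher. The count of mitochondrially encoded genes was 5, and 3 with the replicate block, 10 with only the libraries of the comparison and 1 to 9 over libraries left out. In R1 cells both counts stayed at 0 in every alternative run. For the difference between the lines the nuclear count was 0, and 1 with trends removed, 9 with trends removed and without R1 −Met+Hcy replicate 3, and 0 to 1 over libraries left out. With trends removed 99 of 17162 genes tested were called higher and 138 lower. Without that library as well, 555 of 17069 were called higher and 710 lower. The mitochondrial count was 0, and 5 with DESeq2 and 0 to 1 over libraries left out. Between R1 and HEK293T cells in +Met the nuclear count was 12, and 26 with DESeq2, 3 with the replicate block, 36 with only the libraries of the comparison, 39 with trends removed and without R1 −Met+Hcy replicate 3, and 0 to 43 over libraries left out. DESeq2 called 16.8% of all genes tested. The 39 were 30 lower and 9 higher, in a fit that called 3093 of 17069 genes tested lower and 3267 higher. The mitochondrial count was 0, and 1 with DESeq2, 4 with only the libraries of the comparison and 0 to 4 over libraries left out. With TMM-scaled libraries the log2 ratio of the summed nuclear genes was -0.52 in place of -0.23 in HEK293T cells, 0.60 in place of 0.27 for the difference and -0.67 in place of -0.32 between the lines. Correlations between the deviations of same-numbered libraries had both signs (from -0.504 to 0.484 over 12 pairs). They do not settle whether the numbers pair the samples, since library trends also enter the deviations. The cause of the changes in these counts was not tested, apart from the smaller spread of the model without R1 −Met+Hcy replicate 3 (common dispersion 0.035 against 0.109).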
